A study of Mus musculus with 6 samples.

Results

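Butyrophilins and butyrophilin-like proteins are membrane proteins of the immunoglobulin superfamily, related to the B7 costimulatory molecules, and the 7 family genes described here are Btnl1, Btnl2, Btnl4, Btnl6, Btnl9, Btn1a1 and Btn2a2. They were chosen by name from the 46078 genes of the count table, though with earlier results of these data known, and all 7 were matched. In mice the enterocyte proteins Btnl1 and Btnl6 are displayed together at the cell surface, where they select and maintain intraepithelial gamma-delta T cells whose receptor uses the gamma chain segment Tcrg-V7. Expression of Btnl1, Btnl4 and Btnl6 is largely restricted to differentiated gut epithelium, and HNF4 and CDX transcription factors take part in the intestinal programme that controls such genes. The constant gene of the delta receptor chain, Trdc, served as the reference for gamma-delta lymphocytes as a whole, not only those using Tcrg-V7.

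RNA was sequenced from colon epithelial cells of 3 Lingo2-/- libraries and 3 wild type (WT) libraries. The mice were 2 months old and unchallenged, and the cells were those released from the colon by EDTA and DTT. The sources used here do not give the strain, the sex or how Lingo2 was disrupted. They also leave unsaid whether each library had its own animal, so p-values reflect library-to-library spread that could be technical. Lingo2 encodes a leucine-rich repeat membrane protein, and its own reads were 1, 1 and 0 in Lingo2-/- replicates 1 to 3 and 0, 7 and 0 in WT replicates 1 to 3, too few to check the genotype labels.

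Gene reads numbered 7060769 to 13047682 in Lingo2-/- libraries and 25010618 to 28029583 in WT libraries, so genes of low level were measured less precisely in Lingo2-/-. Epithelial identity was clear in both genotypes: all 11 listed epithelial genes were tested, none was called, and their summed level was 5888 to 6731 CPM (read counts scaled to library size) in Lingo2-/- and 5587 to 6729 CPM in WT libraries. The fraction also held lymphocyte RNA, and 15 listed genes of intraepithelial lymphocytes summed to 140 to 173 CPM in Lingo2-/- and 386 to 458 CPM in WT libraries. These sums include Sox13, which was not called and averaged 38.33 CPM in Lingo2-/- and 34.75 CPM in WT libraries. In RNA from whole fractions, fewer lymphocytes and less RNA per lymphocyte cannot be told apart. The share of mitochondrial genes was 35.7% to 39.8% in Lingo2-/- and 45.3% to 48.4% in WT libraries, and with mitochondrial, haemoglobin and immunoglobulin genes left out no member was called and Btnl6 stayed at -0.32 on the log2 scale.

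In the colon fraction 4 of the 7 genes were abundant, and all 4 lie together on chromosome 17. In GRCm38, the build named in the submitters' processing notes, Btnl2 (34354822 to 34369495) and Btnl1 (34377132 to 34386028) are on the plus strand, and Btnl4 (34466562 to 34477318) and Btnl6 (34507804 to 34517352) on the minus strand. The pseudogenes Btnl5-ps and Btnl7-ps flank Btnl6 on the same strand, and the span from Btnl2 to Btnl7-ps is 192.8 kb, within the major histocompatibility region. Btnl9 lies on chromosome 11 (49165585 to 49187159), and Btn1a1 (23456992 to 23465901) and Btn2a2 (23477676 to 23488857) on chromosome 13, all on the minus strand. No other annotated gene overlaps any of the 7 on either strand in GENCODE M21.

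The start regions of the 4 abundant genes are shown because Btnl4 and Btnl6 are near copies there, while those of Btnl1 and Btnl2 are not. Where transcription begins in these cells was not measured. The windows run from 250 bases before to 50 bases after the RefSeq gene start (GRCm38.p6), and that of Btnl4 begins its gene inside the longer GENCODE gene. In the Btnl4 and Btnl6 lines, capitals mark the bases that differ between the 2 genes in a global alignment, in which 275 of 302 columns (91.1%) were identical.
Btnl6 (chr17:34517303-34517602, minus strand): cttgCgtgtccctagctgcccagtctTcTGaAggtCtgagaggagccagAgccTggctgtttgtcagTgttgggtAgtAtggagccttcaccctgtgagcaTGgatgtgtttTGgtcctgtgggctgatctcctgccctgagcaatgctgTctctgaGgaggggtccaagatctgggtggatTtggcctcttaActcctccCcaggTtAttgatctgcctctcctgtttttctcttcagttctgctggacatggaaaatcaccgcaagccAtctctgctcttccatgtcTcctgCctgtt
Btnl4 (chr17:34475888-34476187, minus strand): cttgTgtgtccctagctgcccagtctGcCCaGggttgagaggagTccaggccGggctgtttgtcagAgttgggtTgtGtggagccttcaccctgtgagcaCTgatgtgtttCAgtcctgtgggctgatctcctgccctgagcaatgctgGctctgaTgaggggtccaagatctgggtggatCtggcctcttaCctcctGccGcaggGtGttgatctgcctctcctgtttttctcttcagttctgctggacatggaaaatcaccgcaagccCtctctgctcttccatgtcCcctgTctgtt
Btnl1 (chr17:34376882-34377181, plus strand): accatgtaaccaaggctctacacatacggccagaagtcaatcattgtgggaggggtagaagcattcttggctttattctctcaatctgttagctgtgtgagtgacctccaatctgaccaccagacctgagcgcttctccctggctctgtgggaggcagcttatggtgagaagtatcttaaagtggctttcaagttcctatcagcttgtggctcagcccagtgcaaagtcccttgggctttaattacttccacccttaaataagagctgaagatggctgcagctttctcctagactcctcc
Btnl2 (chr17:34354572-34354871, plus strand): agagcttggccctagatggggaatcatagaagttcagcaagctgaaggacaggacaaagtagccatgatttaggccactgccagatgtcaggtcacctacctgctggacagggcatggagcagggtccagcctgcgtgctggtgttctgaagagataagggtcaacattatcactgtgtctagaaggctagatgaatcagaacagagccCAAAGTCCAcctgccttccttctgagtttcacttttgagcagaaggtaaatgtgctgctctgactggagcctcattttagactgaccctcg
In the Btnl2 line capitals mark a match to CAAAGTNCA, the core letters that HNF4 factors bind, from 41 to 33 bases before the gene start. Each window was searched on both strands for CAAAGTNCA, for CNATAAA (the core letters of CDX binding) and for TATAAA, and the Btnl2 match was the 1 match found. CAAAGTNCA occurs in 1.4% of 32851 RefSeq windows of the same length, CNATAAA in 10.9% and TATAAA in 13.6%. A match is a description of letters only. The Btnl1 window aligned to that of Btnl6 with 52.9% identity, and to that of Btnl2 with 54.4%.

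Levels can be compared between genes only per length, so CPM were divided by the kilobases of annotated exon. Btnl6 was the most abundant member, at 68.4 ± 4.18 CPM per kilobase in Lingo2-/- and 85.6 ± 10.8 in WT libraries (mean ± SD, n = 3 each). Btnl4 followed at 30.6 ± 2.10 in Lingo2-/- and 31.6 ± 4.08 in WT. Btnl1 stood at 14.3 ± 2.10 CPM per kilobase in Lingo2-/- and 16.2 ± 2.07 in WT, and Btnl2 at 3.50 ± 0.520 in Lingo2-/- and 3.95 ± 0.757 in WT. In both genotypes the ranges of these 4 genes did not overlap, so their order by level per length was the same. Trdc lay below all 4, at 0.485 ± 0.157 CPM per kilobase in Lingo2-/- and 1.88 ± 0.421 in WT libraries.

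The 3 genes outside chromosome 17 were low. Btn1a1 averaged 0.260 ± 0.153 CPM per kilobase in Lingo2-/- and 0.129 ± 0.0315 in WT. In Lingo2-/- libraries its range, 0.117 to 0.421, overlapped that of Trdc, 0.329 to 0.642. Btnl9 averaged 0.0371 ± 0.0252 CPM per kilobase in Lingo2-/- and 0.0433 ± 0.0130 in WT, and Btn2a2 was the lowest. In WT the ranges of Btnl9 and Btn2a2 overlapped, so the order of this last pair is not set.

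**Figure D1:**
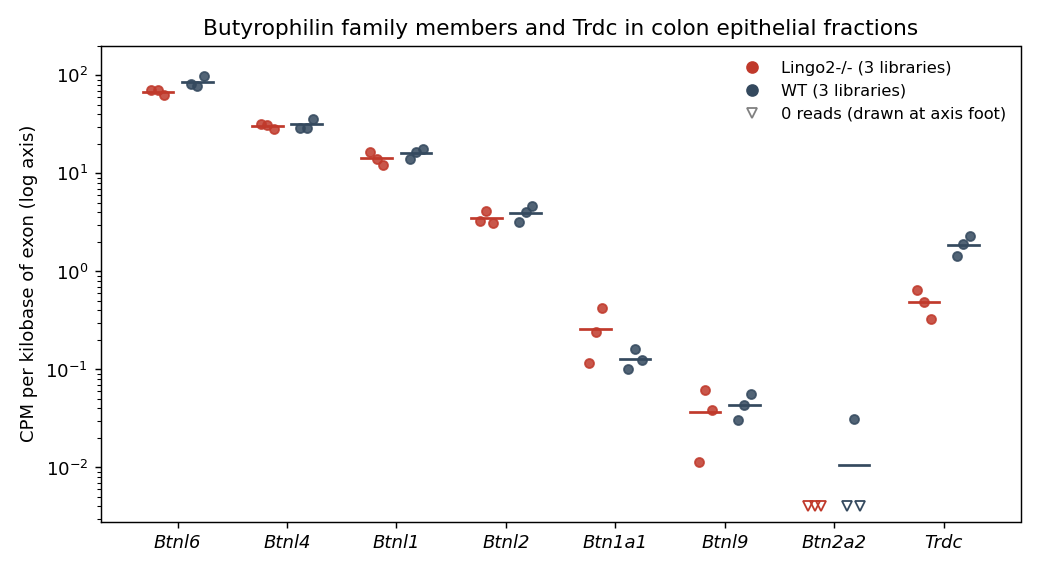
CPM per kilobase of exon (log axis) for the 7 members and Trdc in 3 Lingo2-/- libraries (left in each pair) and 3 WT libraries (right); points are libraries, short lines are means and open triangles are libraries with 0 reads. Btnl6, Btnl4, Btnl1 and Btnl2 lie above Trdc in every library, and Trdc is the one gene of the plot with Lingo2-/- points far below WT points.

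Counting a gene as detected in a library above 3 reads, 5 of the 7 members were detected in all 3 Lingo2-/- libraries and 6 in all 3 WT libraries. The difference is Btnl9, a butyrophilin-like gene outside the histocompatibility region. That cut equals 0.207, 0.374 and 0.347 CPM in Lingo2-/- replicates 1 to 3, and 0.112 to 0.138 CPM in WT libraries. The WT mean of Btnl9, 0.262 CPM, would itself miss the cut in Lingo2-/- replicates 2 and 3. Btnl9 had 1, 3 and 2 reads in Lingo2-/- replicates 1 to 3 and 4, 7 and 8 reads in WT replicates 1 to 3. Pooled by genotype these were 0.193 CPM in Lingo2-/- (95% exact Poisson interval 0.0706 to 0.419) and 0.264 CPM in WT (0.159 to 0.412), and the pooled log2 ratio of Lingo2-/- over WT was -0.45 (95% interval -2.07 to 0.93, counting error only). Btn2a2, known in mice as an inhibitor of T cell activation on antigen-presenting cells, had 0, 0 and 0 reads in Lingo2-/- and 0, 2 and 0 reads in WT libraries. A count of 0 over the Lingo2-/- libraries allows up to 0.0962 CPM, above the 0.0278 CPM of the pooled WT libraries. These intervals and floors cover counting error only.

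Testing genotype over 16757 genes that passed a filter on low counts, 5 members could be tested, and none was called by edgeR's quasi-likelihood test at an adjusted p under 0.05. Over all tested genes 2.57% were called, 1.52% lower and 1.04% higher in Lingo2-/-, so a count of 0 among 5 is near the background. At an unadjusted p under 0.05 there was 1 member, Btnl6, against 18.6% of all tested genes, and the DESeq2 Wald test called none of the 5. The median log2 fold change of Lingo2-/- over WT was -0.17 for the 5 members and 0.001 for all tested genes.

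Btnl1, the partner that brings the other butyrophilin-like chains to the enterocyte surface, had 53.2, 45.5 and 39.7 CPM in Lingo2-/- replicates 1 to 3 and 44.8, 53.6 and 57.9 CPM in WT replicates 1 to 3. The lowest library was a Lingo2-/- one and the highest a WT one, and the groups overlapped. The log2 fold change was -0.17 ± 0.13 (SE, 95% interval -0.44 to 0.10, edgeR adjusted p = 0.495), so the interval in fold runs from 0.735 to 1.07.

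Btnl6, the chain that pairs with Btnl1, had 123.0, 124.8 and 111.3 CPM in Lingo2-/- and 142.9, 135.3 and 171.3 CPM in WT libraries. Every Lingo2-/- library lay below every WT library, which was so for 11.8% of all tested genes. The log2 fold change was -0.32 ± 0.11 (95% interval -0.56 to -0.09, edgeR unadjusted p = 0.0112, adjusted p = 0.136), a fold of 0.799 that did not pass the adjustment over all genes. Without a filter on low counts the adjusted p was 0.0265 and Btnl6 was called lower (-0.345), in a fit that called 1493 genes in place of 430. In the authors' deposited table Btnl6 had a log2 fold change of -0.32 and an adjusted p of 0.159, among 14338 genes of which 4.71% had an adjusted p under 0.05.

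Btnl4, whose protein can also associate with Btnl1, had 76.32, 75.03 and 67.10 CPM in Lingo2-/- and 69.36, 70.03 and 86.50 CPM in WT libraries, with groups that overlapped. Its log2 fold change was -0.05 ± 0.11 (95% interval -0.28 to 0.18, edgeR adjusted p = 0.847), and the sign turned to 0.06 without WT replicate 3 and to 0.0002 without Lingo2-/- replicate 3. Btnl2, which inhibits T cell proliferation in culture, had 8.48, 10.6 and 8.10 CPM in Lingo2-/- and 8.19, 10.4 and 12.1 CPM in WT libraries. The Btnl2 groups overlapped too, and the log2 fold change was -0.18 ± 0.17 (95% interval -0.56 to 0.19, edgeR adjusted p = 0.604).

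Btn1a1, the butyrophilin of the milk fat globule membrane, was the member with a fitted value above 0. It had 7, 8 and 15 reads in Lingo2-/- and 9, 18 and 12 reads in WT libraries, or 0.483, 0.997 and 1.74 CPM in Lingo2-/- and 0.414, 0.671 and 0.511 CPM in WT. The groups overlapped, with Lingo2-/- replicate 3 the highest library. The log2 fold change was 0.89 ± 0.47 (95% interval -0.14 to 1.91, edgeR adjusted p = 0.338), and it was 0.34 without Lingo2-/- replicate 3.

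Trdc had 2.48, 1.87 and 1.27 CPM in Lingo2-/- replicates 1 to 3 and 5.61, 7.35 and 8.86 CPM in WT replicates 1 to 3. All Lingo2-/- libraries lay well below all WT libraries. Trdc fell, with a log2 fold change of -1.90 ± 0.26 (95% interval -2.47 to -1.33, edgeR adjusted p = 0.00253). Its 95% interval lies below those of Btnl1, Btnl2, Btnl4, Btnl6 and Btn1a1. The annotation places Trdv5 and Gm43434 on the opposite strand within Trdc, and no source used here states the strand setting of the counting, so reads of these genes may not be told apart; Trdv5 itself had at most 6 reads in a library.

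Each member was also set against Trdc within a library, where library size largely cancels. For Btnl1 the log2 ratio was 4.36, 4.52 and 4.84 in Lingo2-/- libraries and 2.97, 2.85 and 2.69 in WT libraries. For Btnl6 it was 5.57, 5.98 and 6.33 in Lingo2-/- and 4.64, 4.18 and 4.25 in WT. Both ratios were higher in every Lingo2-/- library than in any WT library. The difference of mean log2 ratios, Lingo2-/- minus WT, was 1.74 for Btnl1, 1.75 for Btnl2, 1.87 for Btnl4, 1.60 for Btnl6 and 2.66 for Btn1a1. Each gave p = 0.10 in an exact two-sided permutation test over libraries, which is the smallest p that 3 against 3 allows, and 0.12 after Benjamini-Hochberg adjustment over the 6 ratios computed. All 5 share the same Trdc values and are not independent of each other. The fall of Trdc (log2 fold change -1.90) enters every ratio. A member equal in both genotypes would therefore show a rise of about that size. These p-values say nothing of the members beyond the fall of Trdc.

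**Figure D2:**
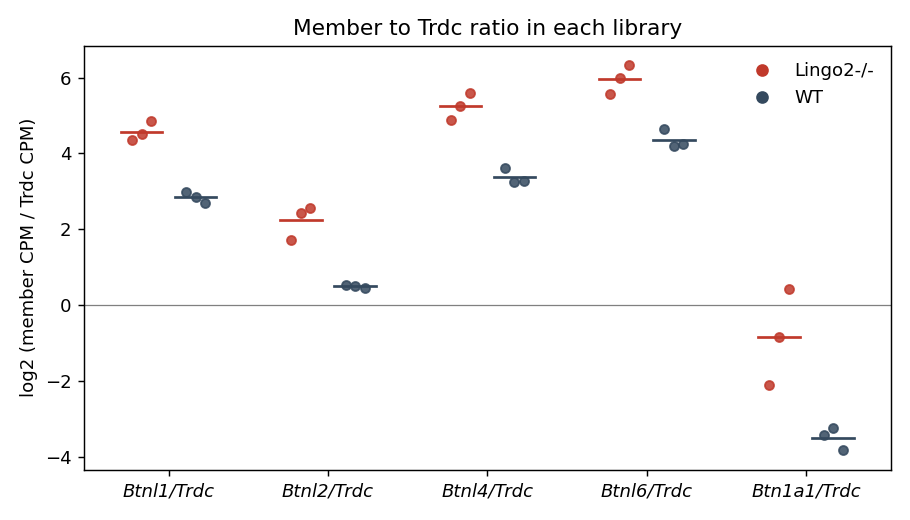
Log2 ratio of member CPM to Trdc CPM in each library (prior count 2), with 3 Lingo2-/- libraries left and 3 WT libraries right for each member; short lines are means. For all 5 tested members every Lingo2-/- point lies above every WT point, and the group means differ by 1.60 to 2.66 on the log2 scale. The fall of Trdc enters every ratio.

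The sixth ratio set Btnl1 against Btnl6, the chains of 1 surface complex. The log2 ratio of Btnl1 to Btnl6 was -1.21, -1.45 and -1.49 in Lingo2-/- libraries and -1.67, -1.34 and -1.56 in WT libraries. The groups overlapped, and the difference of 0.14 gave p = 0.40 in the exact two-sided permutation test (adjusted p = 0.40).

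Of 8 tested genes of the gamma and delta receptor list 5 were called lower and none was called higher (median log2 fold change -1.71, against 0.001 for all tested genes). All 8 had fitted values below 0, the highest at -0.53. The called ones were Trdc, the gamma constant genes Tcrg-C1 (-2.12), Tcrg-C2 (-1.73) and Tcrg-C4 (-1.70), and the variable segment Tcrg-V2, or Trgv2 (-1.19). Tcrg-V7, the segment of the cells that Btnl1 and Btnl6 select in mouse small intestine, had 21, 0 and 8 reads in Lingo2-/- and 61, 122 and 95 reads in WT libraries. The Tcrg-V7 groups did not overlap, with Lingo2-/- lower, as for 11.8% of all tested genes. Its fitted log2 fold change of -2.08 ± 0.54 did not pass (edgeR adjusted p = 0.0905). Among 15 further genes of intraepithelial lymphocytes, 12 were called lower, from -1.17 for the integrin Itgae to -2.42 for the granzyme Gzma, and the others called were Cd3d, Cd3e, Cd3g, Cd7, Cd8a, Cd160, Gzmb, Xcl1, Fcer1g and Nkg7. Those not called were Ccr9 (-0.83), Cd244 (-0.37) and Sox13 (0.14). No listed segment or lymphocyte gene was at 0 reads in all libraries. The summed level of the 15 receptor genes was 15.2 to 25.0 CPM in Lingo2-/- and 53.3 to 67.4 CPM in WT libraries.

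**Figure D3:**
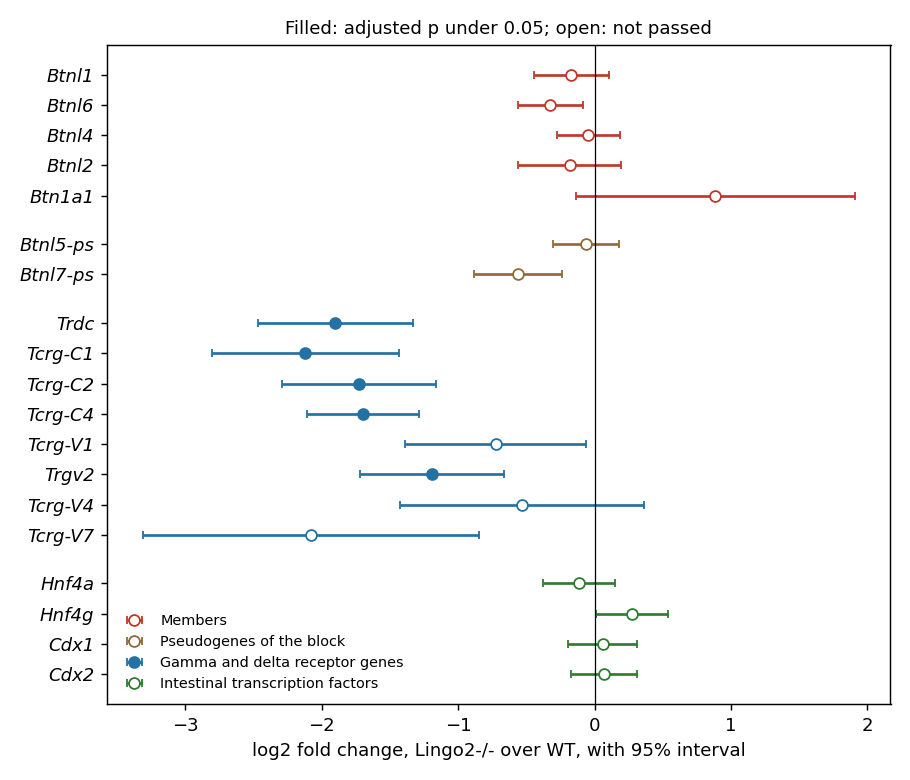
Log2 fold changes of Lingo2-/- over WT with 95% intervals for the 5 tested members, the pseudogenes beside them, tested gamma and delta receptor genes and 4 intestinal transcription factors; filled points passed an edgeR adjusted p under 0.05. The filled points, from -1.19 for Trgv2 to -2.12 for Tcrg-C1, are all receptor genes, and the members of chromosome 17 lie between -0.32 and -0.05.

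Btnl5-ps, annotated as a transcribed pseudogene between Btnl4 and Btnl6, gave more reads than any member. Per length it stood at 89.5 ± 9.91 CPM per kilobase in Lingo2-/- and 93.5 ± 7.42 in WT libraries. In WT its range (88.8 to 102) overlapped that of Btnl6 (77.3 to 97.8), and the Lingo2-/- ranges did not overlap. Within each of the 6 libraries Btnl5-ps lay above Btnl6. It had 212, 189 and 170 CPM in Lingo2-/- and 191, 189 and 217 CPM in WT (log2 fold change -0.06 ± 0.11, edgeR adjusted p = 0.802). Btnl7-ps, on the far side of Btnl6, had 13.2, 15.7 and 11.8 CPM in Lingo2-/- and 16.4, 20.7 and 22.8 CPM in WT. The Btnl7-ps groups did not overlap, with Lingo2-/- lower, which was so for 11.8% of all tested genes. Its log2 fold change of -0.56 ± 0.15 did not pass (edgeR adjusted p = 0.0664).

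These genes are close copies, so reads can be lost or shared between them. Of the distinct 50-base words in annotated Btnl4 transcripts, 325 of 2328 also occur in transcripts of another gene, mostly Btnl5-ps (9.1%) and Btnl7-ps (4.9%), and the share was 3.2% for words of 100 bases. For Btnl6 the shares were 6.6% at 50 bases and 0.1% at 100 bases, and for Btnl5-ps 14.6% and 2.7%. Btnl1 and Btnl2 share no 50-base word with any other annotated transcript. No source used here gives the read length, and levels of Btnl4 and Btnl6 are therefore less certain than those of Btnl1 and Btnl2.

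Read as a share of all reads on the 6 Btnl genes of chromosome 17, a view chosen after the values were seen and therefore given without a test, Btnl6 took 25.3%, 27.1% and 27.3% in Lingo2-/- replicates 1 to 3 and 30.2%, 28.2% and 30.2% in WT replicates 1 to 3. Btnl4 took 15.7%, 16.3% and 16.4% in Lingo2-/- and 14.7%, 14.6% and 15.2% in WT. Btnl5-ps took 43.7%, 41.0% and 41.7% in Lingo2-/- and 40.4%, 39.5% and 38.3% in WT. Btnl6 shares were lower, and Btnl4 and Btnl5-ps shares higher, in each Lingo2-/- library than in each WT library. Btnl7-ps shares were also lower without overlap, at 2.71% to 3.41% in Lingo2-/- and 3.47% to 4.32% in WT. The shares sum to 100% in a library, so a higher share of one gene goes with a lower share of others. How often other groups of genes separate in this way was not computed, so there is no background to judge the pattern against. Btnl1 took 10.2 ± 0.656% in Lingo2-/- and 10.3 ± 0.854% in WT, and Btnl2 2.01 ± 0.279% in Lingo2-/- and 2.01 ± 0.240% in WT (SD, n = 3 each).

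**Figure D4:**
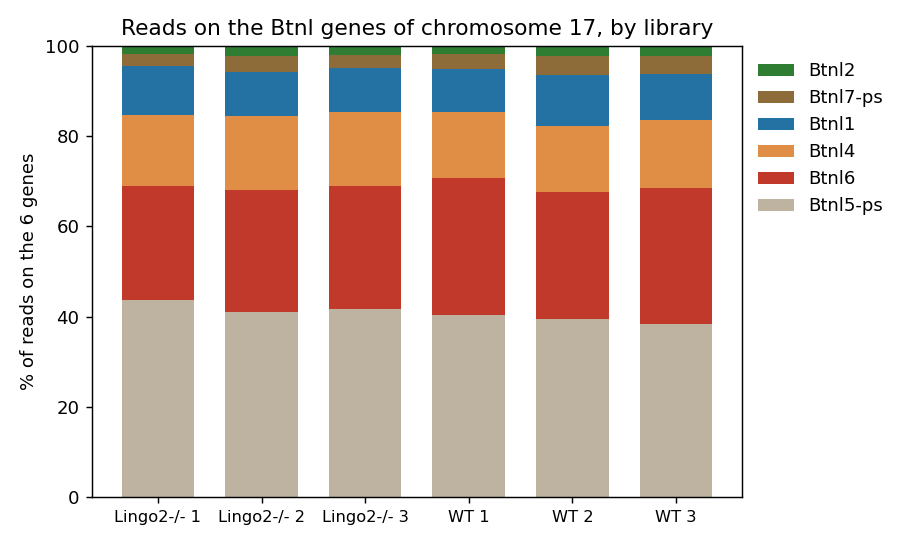
Share of reads on the 6 Btnl genes of chromosome 17 taken by each gene, one bar per library, Lingo2-/- replicates 1 to 3 and then WT replicates 1 to 3. Btnl5-ps and Btnl6 are the broadest bands, and the Btnl6 band spans 25.3% to 27.3% in Lingo2-/- and 28.2% to 30.2% in WT libraries.

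A further 17 family genes were listed in the count data, of which 3 were tested, Btnl5-ps, Btnl7-ps and the B7 family gene Vtcn1, and none was called. Vtcn1 had 1.30 ± 0.494 CPM in Lingo2-/- and 1.56 ± 0.825 CPM in WT (edgeR adjusted p = 0.860). Skint1, Skint2, Skint4, Skint5, Skint6, Skint7, Skint9, Skint10 and Skint11, relatives known in mouse skin and thymus, had 0 reads in all 6 libraries. Btnl10, Ermap, Mog, Skint3 and Skint8 had at most 5 reads in any library.

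Within 50 kb around the chromosome 17 genes, 7 neighbours outside the family were tested and 1 was called, against 2.57% of all tested genes. That gene was Notch4, a Notch receptor, which was higher in Lingo2-/- (log2 fold change 0.80 ± 0.16, edgeR adjusted p = 0.0214). A count of 1 among 7 is too small to compare with the share over all genes.

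Regulators and positions of the epithelium were set beside the members. None of the 4 transcription factors was called (median log2 fold change 0.06). Hnf4g had 21.9 ± 0.600 CPM in Lingo2-/- and 18.1 ± 2.62 CPM in WT (0.27 ± 0.12, edgeR adjusted p = 0.244), and Hnf4a 361 ± 31.1 CPM in Lingo2-/- and 391 ± 46.0 CPM in WT (-0.11 ± 0.12, edgeR adjusted p = 0.652). All 6 listed genes of surface colonocytes had fitted values below 0 (-0.32 to -0.12) and none was called, with Krt20 at -0.30 (edgeR adjusted p = 0.214) and Guca2a at -0.28 (0.404). The part of these genes in the members' values was not tested. In the epithelial identity list the smallest p-values were those of Cdhr5 (-0.35, edgeR adjusted p = 0.190) and Cdh1 (-0.29, 0.337). Of the 6 crypt base genes none was called (median 0.12), with Ascl2 at 1.11 (edgeR adjusted p = 0.140) and Olfm4 at 1.42 (0.304). Of 10 genes of small intestine enterocytes none was called (median 0.74), with Alpi at 0.80 (edgeR adjusted p = 0.131) and Apob at -0.34 (0.135).

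Markers of other cells that can express Btnl9, Btn2a2 or Btnl2 were also measured. Endothelial genes summed to 20.1 to 22.3 CPM in Lingo2-/- and 19.4 to 29.8 CPM in WT libraries, with Vwf called higher (0.96 ± 0.18, edgeR adjusted p = 0.0169) among 7 tested and none called lower (median -0.37). Genes of antigen-presenting myeloid cells summed to 221 to 321 CPM in Lingo2-/- and 237 to 373 CPM in WT, with Itgax (-0.99) and Tyrobp (-1.11) called lower among 12 tested (median -0.22). B cell genes summed to 44.1 to 48.5 CPM in Lingo2-/- and 21.6 to 53.1 CPM in WT, with none of 7 called (median 0.46), and Jchain was at 0.86 (edgeR adjusted p = 0.125) and Pax5 at 0.90 (0.171). No marker of these 3 lists was at 0 reads in all libraries, and their part in the members' values was not tested.

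Likeness to each tested member was measured as the root mean square difference of log2 CPM over the 6 libraries, each gene centred on its own mean, among 13108 genes with a mean log2 CPM of at least 1. Nearest to Btnl1 were Tshz2 (0.0389), Ehbp1 (0.0438) and Fanci (0.0488), and to Btnl2 Polg2 (0.0359), Atad5 (0.0401) and Zfp827 (0.0528). Nearest to Btnl4 were Ush1c (0.0223), Dxo (0.0262) and Dip2a (0.0316), and to Btnl6 Mpp1 (0.0504), Itprid2 (0.0523) and S100a10 (0.0602). Btn1a1 had no close neighbour among these candidates, with Hist1h2ae (0.163), Bst2 (0.224) and Gm24187 (0.228) the nearest. Its own mean log2 CPM was -0.32, below the limit for candidates, so genes at its level were not searched. Within the family Btnl4 and Btnl5-ps were the closest pair (0.0621), while Btnl1 and Btnl6 differed by 0.150. Btnl4 shares 9.1% of its 50-base words with Btnl5-ps, and the part of shared reads in their likeness was not tested. Depth differs with genotype in these 6 libraries, and such likeness is a description of them.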

How the data were processed

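Counts per gene were deposited by the authors as raw whole numbers, with 5 summary lines that name no gene. Neither library sizes nor tests use those lines; alignments that were not unique made up 30.8% to 33.9% of the table in Lingo2-/- and 36.5% to 36.9% in WT libraries, and reads in no feature 23.6% to 27.6% in Lingo2-/- and 18.5% to 22.1% in WT libraries. Trimmomatic 0.39, HTSeq, STAR and DESeq2 are named, with GRCm38, in the submitters' processing notes, which give no roles; the annotation release and strand setting were not found in the sources. A second table holds the authors' deposited comparison, with normalized signal (100% of values equal the count multiplied by 1 factor for each library, within a relative 1e-06), log2 fold changes, a test score and p-values; 4 of the 7 members are in it.

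Counts were tested with edgeR 4.0.16 (R 4.3.3): filterByExpr, TMM factors, a robust quasi-likelihood F test of Lingo2-/- against WT over 16757 genes, Benjamini-Hochberg adjustment, threshold 0.05. CPM use TMM-scaled library sizes. Standard errors are the fold change over the square root of F. A count of 0 allows 3 reads. The script was tested on simulated counts. Symbols, positions and exon lengths are from GENCODE M21, start regions from RefSeq.

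Members, lists and tests were chosen with earlier results of these data known. Named genes are the members, Trdc, and from each list the called genes, or the 2 with the smallest p, and those at 0 reads throughout. For each tested member the 3 most similar genes are also named. Tcrg-V7, Ccr9, Cd244, Sox13, Vtcn1, Btnl10, Ermap, Mog, Skint3, Skint8, Notch4 and Trdv5 fall outside this rule and were named after their values were seen. Replicates differed by more than sampling noise (chi-square per degree of freedom 8.48 to 22.0). Alternatives were other size factors, DESeq2 1.42.0, limma 3.58.1 voom, other filters, a replicate block, leaving out abundant gene classes and leaving out each library.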

Additional observations from a re-analysis of the deposited data

How the results depend on the processing

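Of 152 recomputed values 143 were classed as unchanged. For fold changes tested in the main fit this meant the same direction and side of the threshold. Recomputed differences of ratios, and Btnl9, had no adjusted p to compare, so a side of the threshold does not apply to them. Nor does it apply to numbers of genes called, where values from 305 to 435 were classed as unchanged against 430. Values that reversed direction numbered 2. Both were Btnl4, at 0.0002266 without Lingo2-/- replicate 3 and 0.062 without WT replicate 3. Leaving out each library in turn gave log2 fold changes from -0.30 to -0.08 for Btnl1, -0.32 to -0.05 for Btnl2, -0.105 to 0.062 for Btnl4, -0.39 to -0.22 for Btnl6, 0.34 to 1.34 for Btn1a1 and -2.22 to -1.71 for Trdc, whose edgeR adjusted p stayed between 0.00194 and 0.0232. No member was called in any of these 6 fits. Without a filter on low counts 1 member was called, Btnl6 (-0.345, edgeR adjusted p = 0.0265), and 1493 genes were called in place of 430; the cause was not tested. Over all settings the adjusted p of Btnl6 otherwise ran from 0.113 to 0.324. The genes called numbered 657 with the DESeq2 Wald test and 174 to 674 without 1 library, 174 without Lingo2-/- replicate 2, 180 without Lingo2-/- replicate 3 and 674 without WT replicate 3. No pairing by replicate number was seen: deviations of same-numbered libraries correlated at -0.126, 0.128 and -0.022, and not every library correlated best with its own number. Whether same-numbered libraries were handled together is not stated, and correlations this weak cannot settle it. With the replicate block 360 genes were called, no member among them, with Btnl6 at -0.32 (edgeR adjusted p = 0.232) and Trdc at -1.87 (0.0108). Differences of the ratios to Trdc stayed above 0 in every setting, from 1.41 for Btnl6 to 3.295 for Btn1a1 when 1 library was left out, and an exact permutation test paired by replicate number cannot go below p = 0.25. The fall of Trdc enters each of these differences. Btnl9 lies below the filter; without a filter its log2 fold change was -0.427 (edgeR adjusted p = 0.824). Btn2a2 gives no fold, and Btn1a1 drops out under a filter of 1 CPM in 3 libraries.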
